A study of Mus musculus with 4 samples.

Results

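The islet hormone genes described here are the 8 genes that encode the peptide hormones of the islet cell types: Ins1, Ins2, Iapp, Gcg, Sst, Ppy, Pyy and Ghrl. They were chosen by name, and all 8 were found among the 43629 genes of each count file. RNA was measured in 4 libraries from mouse pancreatic islets of the C57BL/6 strain, with 1 library per group. The groups were control islets, islets of the genotype Rip2;IMP2 (called a knockout specific to islets in the series title), RNA recovered with IMP2 from wild-type (WT) islets by immunoprecipitation (RNA immunoprecipitation, RIP), and a library titled IgG, also from WT islets. IgG is the usual antibody control of a RIP. With no replicates, no difference below has a p-value, every interval covers counting error only, and each comparison is between 2 libraries rather than 2 conditions. Rip2 usually names an insulin promoter, which is active in beta cells, so other islet cells of such mice can keep the gene. The sources used here do not state age, sex, the number of animals or pooling.

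Each islet hormone is made mainly by its own cell type. Beta cells make insulin, in mice from the gene pair Ins1 and Ins2, and release islet amyloid polypeptide (Iapp) with it. Alpha cells make glucagon (Gcg), delta cells somatostatin (Sst), PP cells pancreatic polypeptide (Ppy) and epsilon cells ghrelin (Ghrl), while peptide YY (Pyy) is made in several islet cell types and in the gut. Insulin lowers blood glucose, glucagon raises it, and somatostatin inhibits the release of both. IMP2 is an RNA-binding protein that regulates the stability and translation of mRNA. In whole islets, fewer cells of a type and less RNA per cell cannot be told apart.

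Gene counts came to 26350813 in the control library, 24275628 in the library labelled knockout, 6025594 in the RIP and 13195732 in IgG, and values below keep this order. Igf2bp2, which encodes IMP2, had 255, 222, 186 and 458 counts, or 9.68, 9.14, 30.9 and 34.7 CPM (counts scaled to a gene total of 1e+06). It was not depleted in the library labelled knockout, and a whole-gene count cannot test for a partial deletion. Markers of lymphocytes (9 genes) summed to 1232, 223.2, 149.5 and 9.17 CPM, and markers of brown fat (9 genes) to 384.3, 260.9, 5698 and 82672 CPM. The IgG library thus stood apart and went against its tissue label. The part of these other tissues in the results below was not tested. Among genes with over 5 counts that stood at 0 in both islet libraries, the median count was 18 in the RIP and 21 in IgG. These values serve below as rough estimates of reads per molecule. They can be too high, since the filter on counts raises them and such genes can hold more than 1 molecule. Genes at 1 count made up 9.31% of detected genes in the control library, 3.17% in the RIP and 8.75% in IgG. Intervals on molecules below are therefore rough, above all for IgG.

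The sequences of the insulin genes are shown first because the genes are near-identical in places, and reads that align equally well to both are assigned to neither. Over 324 aligned coding bases, Ins1 and Ins2 were 92.6% identical, with 24 mismatches, 6 bases of gap and a longest identical stretch of 54 bases. The most alike window of 90 coding bases has 2 mismatches, in capitals. It covers chr19:52264721-52264810 on the plus strand in Ins1 and chr7:142679347-142679436 on the minus strand in Ins2, in coding exons of both (GRCm38, the assembly of mm10, with GENCODE M21 transcripts), each written 5′ to 3′.
Ins1: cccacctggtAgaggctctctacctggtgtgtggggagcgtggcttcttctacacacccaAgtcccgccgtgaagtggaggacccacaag
Ins2: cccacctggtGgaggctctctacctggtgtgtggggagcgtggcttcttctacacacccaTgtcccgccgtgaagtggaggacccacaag
The least alike window of 90 coding bases lies directly 5′ of it and has 13 mismatches, again in capitals, at chr19:52264631-52264720 in Ins1 and chr7:142679437-142679526 in Ins2.
Ins1: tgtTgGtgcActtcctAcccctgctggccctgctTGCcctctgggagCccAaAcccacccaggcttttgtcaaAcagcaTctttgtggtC
Ins2: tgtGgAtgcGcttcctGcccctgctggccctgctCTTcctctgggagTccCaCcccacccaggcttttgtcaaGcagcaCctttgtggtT
Of the distinct 50-base windows of annotated transcripts, 7 of 1013 of Ins1 (0.691%) and 7 of 1504 of Ins2 (0.465%) occur without a mismatch in the other gene. At 75 bases the number was 0 for both. No 50-base window of the other 6 hormone genes occurs in a transcript of another counted gene. Read length is not stated in the sources used here.

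The insulin genes were the most abundant of the 8 in all 4 libraries. Ins2 (ENSMUSG00000000215, chromosome 7, 142678656 to 142743381, minus strand) stood at 191671, 203988, 144019 and 596.3 CPM. Ins1 (ENSMUSG00000035804, chromosome 19, 52264297 to 52265476, plus strand) stood at 107076, 117266, 81464 and 334.8 CPM. For both genes the labelled knockout was highest, control islets next, then the RIP, with the IgG library far below. Together they took 29.9%, 32.1%, 22.5% and 0.0931% of gene counts, and all 8 hormone genes took 33.3%, 36.7%, 25.8% and 0.108%. With all deposited counts as the denominator, the 8 genes took 16.4%, 18.2%, 7.11% and 0.0319%. The RIP then lay further below the islet libraries, since more of its deposited counts name no gene.

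The balance between the insulin genes was nearly the same in all 4 libraries. The ratio of read density (counts per kb of exon) of Ins2 over Ins1 was 1.45 in the control library, 1.41 in the library labelled knockout, 1.43 in the RIP and 1.44 in IgG. Relative to control islets the ratio changed by a factor of 0.972 (95% interval 0.970 to 0.974) in the labelled knockout, 0.988 (0.984 to 0.991) in the RIP and 0.995 (0.959 to 1.03) in the IgG library. These 3 factors share the control library. By reads, the first 2 differ from 1 by more than counting error, though by little, and the last does not. On estimated molecules, explained above, the factor of the RIP spans 0.973 to 1.002, so its difference lay within counting error. The ratio itself rests on the length used, and was 2.07 in control islets by the longest transcript and 1.79 as a plain ratio of reads, whereas a change between libraries does not depend on length. Changes of ratios to insulin, below, were computed on reads.

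Iapp, which encodes the amyloid peptide released with insulin (ENSMUSG00000041681, chromosome 6, 142298423 to 142303961, plus strand), stood at 8011, 10147, 7958 and 29.6 CPM. The labelled knockout was highest, and control islets and the RIP were close to each other. Relative to insulin, the read density of Iapp was 3.33% of that of Ins1 plus Ins2 in the control library, 3.92% in the library labelled knockout, 4.38% in the RIP and 3.95% in IgG (3.56 to 4.37). Control islets were lowest on this measure by reads, and the interval of the IgG library held the value of the labelled knockout. The factor of the IgG library over control islets, 1.19, spans 0.748 to 1.88 on molecules, within counting error.

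Gcg, the glucagon gene of alpha cells (ENSMUSG00000000394, chromosome 2, 62474530 to 62483650, minus strand), stood at 14006, 24536, 17018 and 80.8 CPM. Its read density relative to insulin was 3.80% in the control library, 6.18% in the library labelled knockout, 6.11% in the RIP and 7.02% in IgG (6.59 to 7.48). Control islets were low and the other 3 libraries were close together. Relative to control islets, this ratio was 1.63-fold in the library labelled knockout (1.62 to 1.64), 1.61-fold in the RIP (1.60 to 1.62) and 1.85-fold in IgG (1.74 to 1.97, or 1.39 to 2.47 on estimated molecules). The 3 values share the control library. Of the RIP over the IgG library, the factor was 0.870 (0.817 to 0.926, or 0.652 to 1.16 on estimated molecules), so on molecules the difference lay within counting error.

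Sst, the somatostatin gene of delta cells (ENSMUSG00000004366, chromosome 16, 23889573 to 23890958, minus strand), stood at 3488, 3859, 2728 and 12.7 CPM. Its density relative to insulin was 1.96%, 2.01%, 2.03% and 2.28% (1.95 to 2.66 in the IgG library). All 4 values were close, and the IgG library differed from control islets by a factor of 1.16 (0.999 to 1.36), within counting error. Gcg over Sst, a ratio of the alpha and delta hormones that leaves insulin out, had a read density ratio of 1.94 in control islets and 3.07, 3.01 and 3.08 in the other libraries. Control islets were low on this ratio beside the labelled knockout (factor 1.58, 1.57 to 1.60) and the RIP (1.55, or 1.45 to 1.67 on molecules), while the factor of the IgG library, 1.59, spans 0.753 to 3.36 on molecules.

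Ppy and Pyy encode related peptides of the pancreatic polypeptide family and lie 5.36 kb apart on the minus strand of chromosome 11. Ppy (ENSMUSG00000017316, 102099930 to 102101319) stood at 6370, 4518, 2920 and 22.0 CPM. Pyy (ENSMUSG00000017311, 102106676 to 102107832) stood at 2689, 2211, 1621 and 6.06 CPM. Control islets were highest for both, then the labelled knockout, then the RIP. Relative to insulin, the density of Ppy was 5.16%, 3.40%, 3.13% and 5.71% (5.07 to 6.42 in the IgG library), and that of Pyy 1.73%, 1.32%, 1.38% and 1.25% (0.989 to 1.55). The IgG library therefore lay with control islets for Ppy, and with the labelled knockout and the RIP for Pyy. Its Pyy value rests on 80 reads, about 3.81 molecules by the estimate above, and its factor against control islets, 0.723 (0.581 to 0.901), spans 0.264 to 1.98 on molecules. For Ppy the factor of the RIP over the IgG library was 0.549 (0.488 to 0.617, or 0.321 to 0.939 on molecules).

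**Figure D1:**
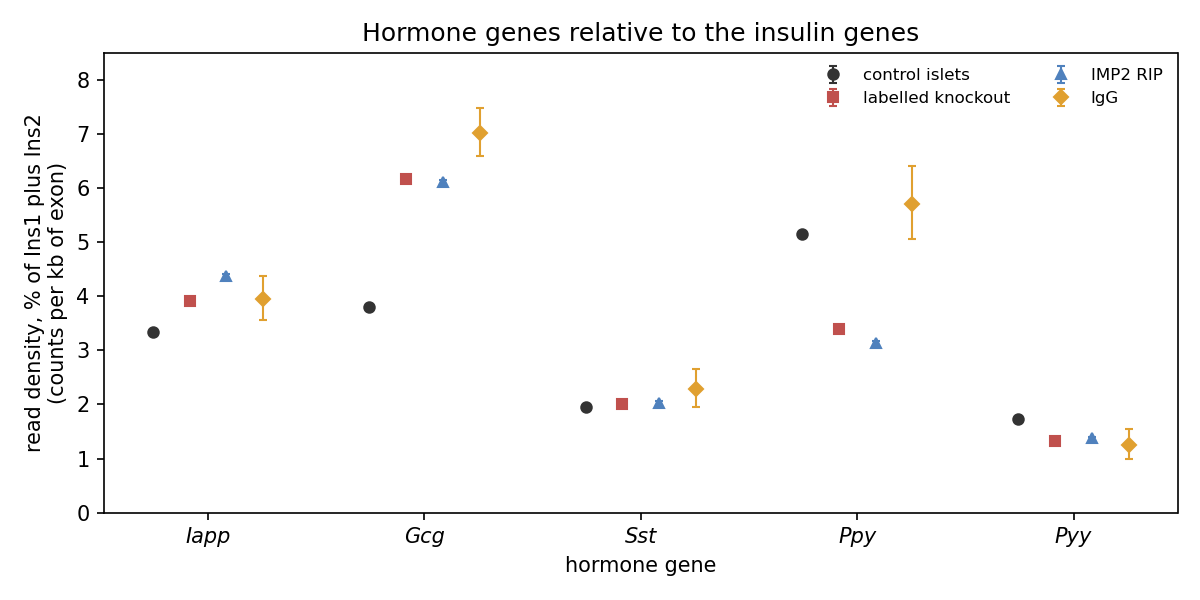
Read density (counts per kb of exon) of 5 hormone genes as % of that of Ins1 plus Ins2, 1 point per library, with exact 95% intervals for counting error. Gcg was 3.80% in control islets and 6.11% to 7.02% in the other libraries, Ppy was higher in control islets and the IgG library than in the other 2, and Sst lay between 1.96% and 2.28% in all 4.

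Ghrl, the ghrelin gene of the rare epsilon cells (ENSMUSG00000064177, chromosome 6, 113716119 to 113719880, minus strand), was the least abundant of the 8. It had 353, 280, 32 and 0 counts, or 13.4, 11.5, 5.31 and 0 CPM, and a count of 0 in the IgG library allows up to 0.227 CPM. In CPM, control islets and the labelled knockout had overlapping intervals (12.0 to 14.9 and 10.2 to 13.0), and the RIP lay below both. The 32 reads of the RIP correspond to fewer than 3 molecules by the estimate above. Of the Ghrl exons, 15.7% overlap Gm44033 on the other strand, which has no entry of its own in the count files, and the sources used here do not state the strand setting of the counting. Mboat4, the enzyme that activates ghrelin, had 2, 3, 0 and 0 counts.

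**Figure D2:**
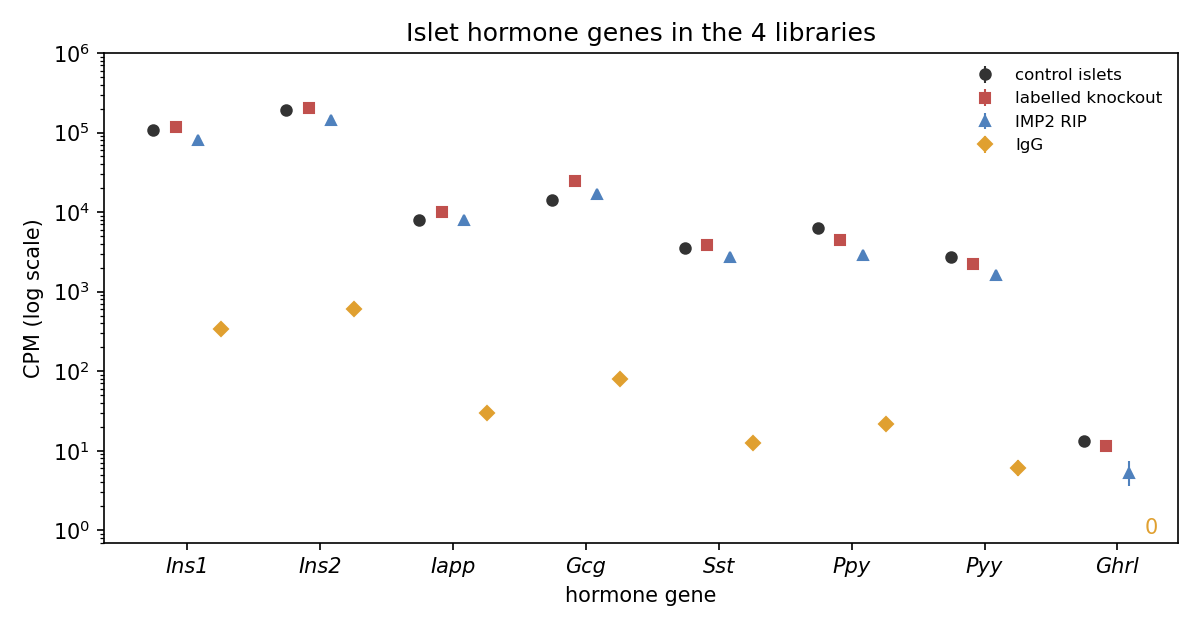
CPM (log scale) of the 8 hormone genes, 1 point per library, with exact Poisson 95% intervals that are mostly smaller than the points. Ins2 was highest and Ghrl lowest in each library, and the IgG library, with 0 counts of Ghrl, lay far below the others for each gene.

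By read density per kb of exon, the order of the hormone genes after insulin differed between control islets and the other libraries. By plain reads the order was the same in each library, with Gcg first, then Iapp, Ppy, Sst and Pyy. Per kb of exon, control islets had Ppy at 12740 CPM, Gcg at 9375, Iapp at 8225, Sst at 4838 and Pyy at 4262. The labelled knockout had Gcg at 16423, Iapp at 10418, Ppy at 9035, Sst at 5353 and Pyy at 3504 CPM per kb. The RIP had the order of the labelled knockout, with Gcg at 11391, Iapp at 8171 and Ppy at 5839. The IgG library had Gcg at 54.1, Ppy at 44.0 and Iapp at 30.4 CPM per kb. Gcg was thus ahead of Ppy in each library but control islets. That exception depends on the length used, since the density of Gcg over Ppy in control islets was 0.736 by exon length, 1.01 by the longest transcript and 1.22 by coding length. The place of Ppy ahead of Iapp in control islets depends on it too. That ratio was 1.55 by exon length, 1.33 by the longest transcript, 0.795 by reads and 0.740 by coding length.

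As shares of the summed density of the 6 genes other than insulin, Gcg made up 23.8% in the control library, 36.7% in the library labelled knockout, 35.9% in the RIP and 34.7% in IgG. Ppy made up 32.3%, 20.2%, 18.4% and 28.2%. Sst varied least, at 12.3%, 12.0%, 11.9% and 11.3%. Control islets were the lowest library for Gcg and the highest for Ppy, and the density of Gcg over Ppy relative to control islets was 2.47-fold in the library labelled knockout (2.45 to 2.49), 2.65-fold in the RIP (2.61 to 2.70) and 1.67-fold in IgG (1.47 to 1.90, or 0.922 to 3.03 on molecules). These values, too, share the control library.

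**Figure D3:**
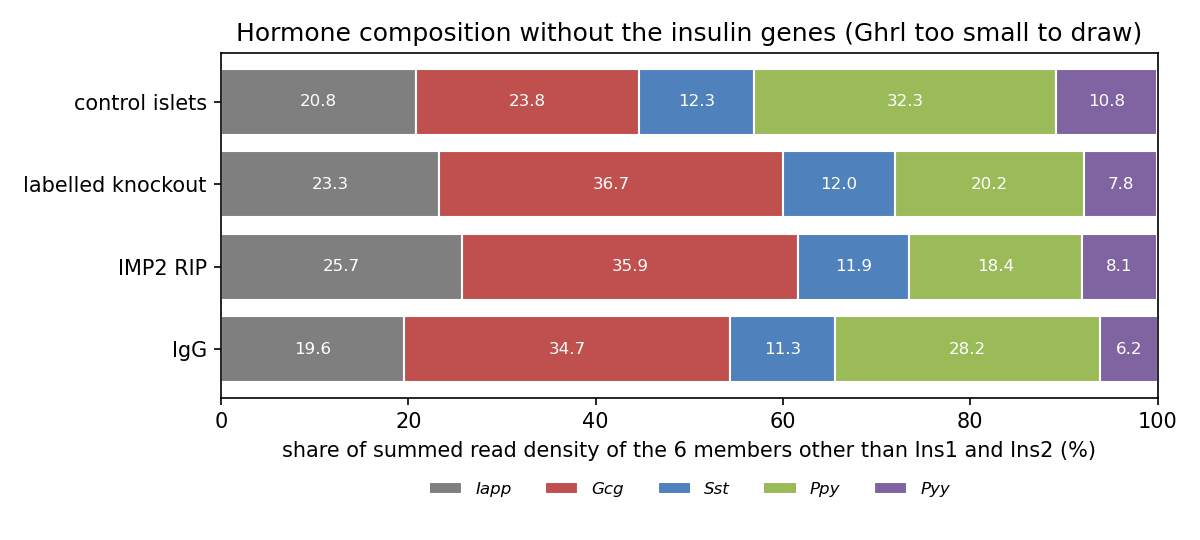
Share (%) of each gene in the summed read density (counts per kb of exon) of the 6 hormone genes other than Ins1 and Ins2, 1 bar per library. Gcg takes 23.8% in control islets and 34.7% to 36.7% in the other libraries, Ppy takes 18.4% to 32.3%, and Sst 11.3% to 12.3%.

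To set the hormone genes beside all other genes, levels were compared after scaling 2 libraries to each other by TMM (trimmed mean of M values). Genes with a mean of at least 1 CPM count as measured. Those whose 95% interval excluded 1 were called at a fold limit of 1.5 (labelled knockout over control) or 2 (comparisons with the RIP). In the labelled knockout over control, 1 of the 8 hormone genes was called higher and 0 were called lower, where 6.13% of the 15735 measured genes were called higher, 15.3% lower and 21.4% either way. Gcg rose 1.81-fold (1.81 to 1.82). Among the 1232 genes with a mean of at least 100 CPM, 4.87% had a log2 ratio as far from 0 as that of Gcg, which was 0.86. Ppy had a ratio of 0.734 (0.729 to 0.740), short of the fold limit, and 22.9% of those genes lay as far from 0. The ratios of the other members were 1.31 for Iapp, 1.15 for Sst, 1.13 for Ins1, 1.10 for Ins2, 0.892 for Ghrl (0.759 to 1.05) and 0.851 for Pyy. The median log2 ratio of the 8 was 0.16, against 0.0024 over all measured genes and 0.10 over the 1232 genes of at least 100 CPM.

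In the RIP over control, 0 of the 8 hormone genes were called higher and 1 was called lower, where 16.8% of 15968 measured genes were called higher, 24.3% lower and 41.2% either way. Ghrl was called lower on its 32 reads, at 0.481 of control (0.324 to 0.692). On estimated molecules, 1.78 in the RIP, its interval was 0.0477 to 1.87, so the call was lost and 0 of 8 were called. Gcg had a ratio of 1.47 (1.46 to 1.49) and Iapp of 1.21, and Ppy stood at 0.556 (0.548 to 0.565) and Pyy at 0.732. Sst (0.949), Ins1 (0.923) and Ins2 (0.912) lay close to 1. The median log2 ratio of the 8 was -0.12, and so was that of all measured genes. Scaling moved these values: with total gene counts the median of all measured genes became -0.40, the ratio of Iapp changed side (log2 -0.01 instead of 0.27), and Ppy was called lower as well (log2 -1.13). The order of the members does not depend on scaling.

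**Figure D4:**
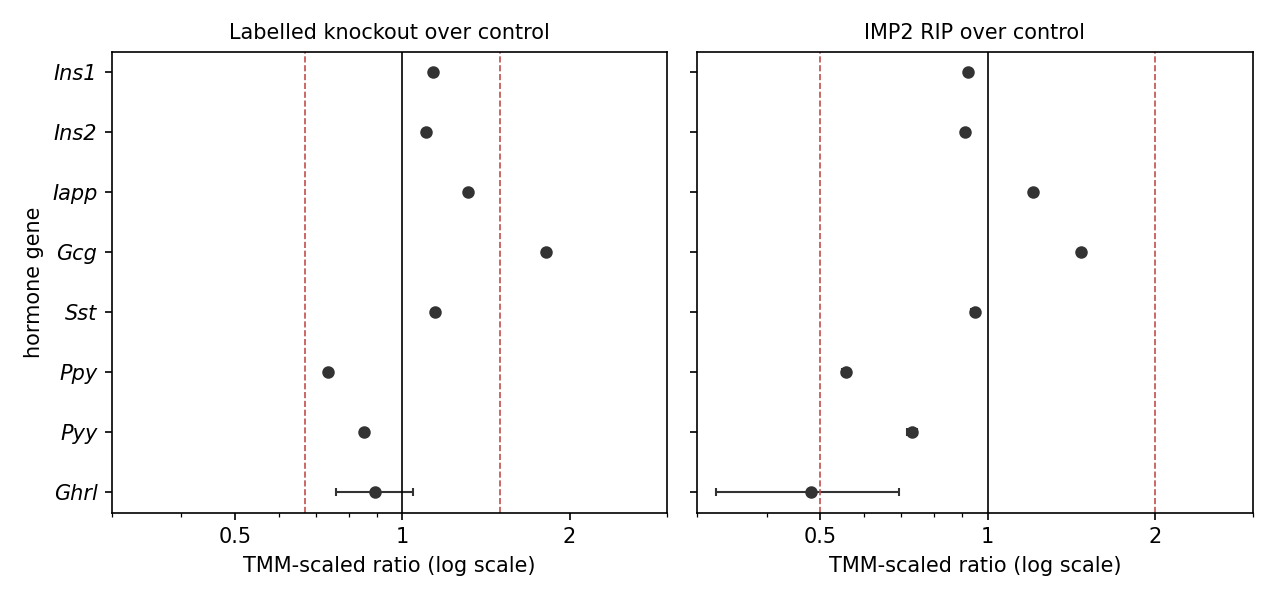
TMM-scaled ratio (log axis) of each hormone gene in the labelled knockout over control islets (left) and in the RIP over control islets (right), 1 point per gene with the exact 95% interval for counting error. Dashed lines mark the fold limits of 1.5 and 2. Gcg is past the limit on the left at 1.81, Ghrl on the right at 0.481 by reads (0.0477 to 1.87 on estimated molecules, not drawn), and Ppy lies below 1 in both panels, which share the control library.

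In the RIP over the IgG library, 8 of 8 hormone genes were called higher, where 43.2% of 14822 measured genes were called higher, 30.5% lower and 73.7% either way. The ratios were 166.6 for Iapp (150.8 to 184.5), 165.8 for Pyy, 150.9 for Ins1, 149.8 for Ins2, 133.7 for Sst, 130.7 for Gcg and 82.4 for Ppy (73.4 to 92.9), and Ghrl, at 0 counts in IgG, was at least 11.1-fold higher by the lower limit of its exact interval (14.5-fold against a floor of 3 counts, which leaves out the error of its 32 reads). On estimated molecules 7 of 8 were called, Ghrl not. By reads Ppy had the lowest ratio of the 7 genes with reads in both. On molecules its interval (48.7 to 152.0) overlapped that of each of the others, Ins2 (135.3 to 166.3) and Gcg (99.2 to 175.8) among them. As a ratio within each library, the factor of Ppy on molecules was 0.549 to insulin (0.321 to 0.939) and 0.495 to Iapp (0.246 to 0.996). Intervals of Gcg over Ppy (0.871 to 2.89), Sst over Ppy (0.675 to 3.90) and Ppy over Pyy (0.159 to 1.55) held 1. The place of Ppy below Gcg, Sst and Pyy is therefore not settled. Of other beta cell markers 9 of 9 were called higher, among them G6pc2, a glucose-6-phosphatase subunit of beta cells, at 281.7, and Trpm5, an ion channel, at 27.2. The 9 brown fat markers were all called lower, from 0.0259 (Car3) to 0.0523 (Adipoq). The IgG library thus held few reads of islet genes and many of brown fat genes, and the part of that in these ratios was not tested. Relative to control islets, the 7 members stood in the IgG library at 0.00225 (Pyy) to 0.00577 (Gcg) of their CPM.

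Promoter sequences of 7 of the 8 genes matched in RefSeq (GRCm38.p6). Those of Gcg, Ppy and Pyy are shown because CPM of Gcg was lower and that of the other pair higher in control islets than in the labelled knockout. Each runs from 250 bases before the start to 50 bases after it, 5′ to 3′ on the minus strand, at chr2:62483604-62483903, chr11:102101270-102101569 and chr11:102107783-102108082. Capitals mark E boxes (CANNTG, bound by factors such as Neurod1), TAAT cores of homeodomain factors, TATAAA boxes and the cAMP response element TGACGTCA, searched on both strands.
Gcg: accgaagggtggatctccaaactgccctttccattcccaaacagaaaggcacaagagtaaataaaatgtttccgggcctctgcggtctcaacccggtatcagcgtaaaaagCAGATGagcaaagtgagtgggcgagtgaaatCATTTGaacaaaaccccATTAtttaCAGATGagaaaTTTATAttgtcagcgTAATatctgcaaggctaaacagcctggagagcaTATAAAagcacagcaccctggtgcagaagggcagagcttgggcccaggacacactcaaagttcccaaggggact
Ppy: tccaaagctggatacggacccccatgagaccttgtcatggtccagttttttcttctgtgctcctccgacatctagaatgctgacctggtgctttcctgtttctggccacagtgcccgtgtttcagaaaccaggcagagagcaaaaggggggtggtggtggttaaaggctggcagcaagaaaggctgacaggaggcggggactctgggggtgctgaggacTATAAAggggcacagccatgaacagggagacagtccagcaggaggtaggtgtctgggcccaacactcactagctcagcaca
Pyy: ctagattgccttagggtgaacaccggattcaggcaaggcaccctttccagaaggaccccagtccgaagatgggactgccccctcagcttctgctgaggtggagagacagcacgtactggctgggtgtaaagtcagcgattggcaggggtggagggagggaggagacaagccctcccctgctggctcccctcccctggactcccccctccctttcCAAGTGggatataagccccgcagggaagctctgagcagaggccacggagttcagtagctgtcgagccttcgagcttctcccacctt
Gcg has 3 E boxes, 2 TAAT cores and 2 TATAAA boxes, the nearer of which starts 24 bases before the start site. Ppy has none of the first 2 motifs and 1 TATAAA box, 31 bases before the start. Pyy has 1 E box alone. Of 32851 mouse promoters of this length, 72.3% hold an E box, 58.0% a TAAT core, 13.6% TATAAA and 1.79% TGACGTCA, which among the 7 matched genes occurs in Sst alone. A match is a description of letters and not of binding.

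Of 24 listed transcription factors that act on the hormone genes, 21 were measured in the labelled knockout over control. Of these 7 rose, 1 fell and 13 were not called (6.13% of all measured genes rose and 15.3% fell), with a median log2 ratio of 0.53 against 0.0024 for all genes. Among those that rose were Mafa (1.86-fold), an activator of the insulin genes in mature beta cells, Irx1 (1.83) and Irx2 (1.65), factors of alpha cells, and Neurod1 (1.58) and Nkx2-2 (1.54), which act in several islet cell types. Creb1, which mediates the response to cAMP, fell to 0.657. Pax6, the most abundant of the list and an activator of Gcg, had 234.5 and 327.4 CPM in control and labelled knockout (1.45-fold, not called). Of 22 factors measured in the RIP over control 3 were higher, among them Pou3f4 (6.07-fold, from 14 counts in control islets and 16 in the RIP) and Meis1 (2.77), and Hhex, a factor of delta cells, was lower at 0.366. These counts are near or below the 16.8% of all measured genes called higher and the 24.3% called lower. Over IgG, 20 of 22 were higher, beside 43.2% of all genes.

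Markers of the hormone-making cells, without the hormones, were set beside these results. In the labelled knockout over control, 6.13% of all measured genes rose and 15.3% fell. Of 9 alpha cell markers, 3 rose in this comparison, Irx1 and Irx2 among them, and 0 fell, with a median log2 ratio of 0.44. Their summed level was 2135, 2643, 2013 and 79.3 CPM in the order above, and Ttr, the most abundant, had a ratio of 1.29. Of 9 beta cell markers 1 rose (Mafa), with a median of 0.26. Of 5 measured delta cell markers 1 fell (Pdyn, which encodes prodynorphin, to 0.582), with a median of -0.43. The single beta and delta cell calls are near the shares of all measured genes. Whether these differences reflect the makeup of the preparations was not tested.

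Since Pyy, Gcg and Ghrl are also made in the gut, markers of gut epithelium and its endocrine cells were examined. Of 13 genes 7 were measured in the labelled knockout over control, and 5 fell and 1 rose. Over all measured genes, 15.3% fell and 6.13% rose. The median log2 ratio of the 7 was -6.90, or -4.79 where 0 counts were replaced by the floor. Alpi, an alkaline phosphatase of enterocytes, had 306, 1, 0 and 0 counts, Fabp2, a fatty acid carrier of enterocytes, 192, 0, 0 and 0, and Tph1, which makes serotonin and is also expressed in islets, rose 1.88-fold. The list's summed level was 235.0, 252.9, 136.9 and 56.8 CPM. That sum rested mostly on Tph1 (152.8 CPM) and Vil1 (98.9) in the labelled knockout, and on Apoa1 (54.6) in the IgG library. It therefore does not show the fall of the other genes from control islets. Of the hormone genes of gut endocrine cells, Cck had 3, 1, 0 and 0 counts, Gip 24, 0, 0 and 0, Sct 9, 5, 0 and 0, and Nts 0, 2, 0 and 0. Control islets therefore held reads of Alpi and Fabp2 that the other libraries held at or near 0, while Cck, Gip, Sct and Nts were at or below 24 counts. The 9 lymphocyte markers all fell in the labelled knockout, from 0.122 (Cd3e) to 0.223 (Cd2) of control, with a median log2 ratio of -2.40. The part of these cells in the lower Gcg and higher Ppy of control islets was not tested.

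Among genes that process the hormones no call was made in the labelled knockout. Of 19 listed, 17 were measured in the labelled knockout over control, with a median log2 ratio of 0.25. Of these, 0 were called either way, where 21.4% of all measured genes were called. Ratios ran from 0.825 for Dpp4, a peptidase that cleaves incretins, to 1.36 for Pcsk1n, an inhibitor of a prohormone convertase. Chga, a granule protein and the most abundant of them, had 9339 and 9532 CPM. Of these genes, 1 was higher and 1 lower in the RIP over control, where 16.8% of all measured genes were higher and 24.3% lower. They were Ide, the insulin-degrading enzyme, at 2.26-fold, and Dpp4 at 0.499. Over IgG, where 43.2% of all genes were higher, 16 of 17 were higher and 1, Ide, was lower at 0.140, with 405.7 CPM in the IgG library.

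Receptors of the hormones were mostly of low abundance. In the labelled knockout over control, 12 of 19 were measured, where 6.13% of all measured genes rose and 15.3% fell. Sstr1 (2.19-fold, 19 and 37 counts) and Sstr2 (2.01-fold), both somatostatin receptors, rose, while Npy1r, a receptor of Pyy, fell to 0.324. The most abundant, Sstr3, had 159.7 and 207.8 CPM (1.35-fold, not called), and the median log2 ratio was 0.22. Of 10 measured in the RIP over control, 0 were higher and 3 were lower, where 24.3% of all measured genes were lower. They were Npy1r (125 counts in control islets and 0 in the RIP), Igf1r (0.384, on 22 RIP counts) and the insulin receptor Insr (0.436). Over IgG, 5 of 11 were higher and 5 lower, where 43.2% of all genes were higher and 30.5% lower. Both counts are near those shares.

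The genes whose profile over the 4 libraries was most like that of each hormone gene were ranked by distance, on log2(CPM + 0.5) values centred per gene, among 11111 genes with a mean of at least 5 CPM. For Ins1 they were Ins2 (distance 0.0309), Pcsk2 (0.0784), a prohormone convertase, and Scg5 (0.137), its chaperone. For Ins2 they were Ins1, Pcsk2 (0.0623) and Ucn3 (0.150), a peptide of mature beta cells. Iapp was nearest to Resp18 (0.0725), Chgb (0.134), a granule protein, and Xist (0.154), the RNA that silences an X chromosome. Gcg was nearest to Emilin1 (0.155), Prlr (0.211), the prolactin receptor, and Cltrn (0.252). These distances are small beside those of Ppy, whose nearest genes were Chga (0.404), Igfbp7 (0.492) and Ddc (0.564). Sst was nearest to Pcsk2 (0.162), Ddc (0.200) and Hepacam2 (0.207), and Pyy to Ins2 (0.303), Ucn3 (0.304) and Pcsk2 (0.318). Ghrl was nearest to Cacna1h (0.0959), Slain1 (0.127) and Knstrn (0.131), each at 0 counts in the IgG library. The distances describe 4 libraries, and for each of the 8 genes the IgG library lies far below the other 3.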

How the data were processed

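RNA of the 4 libraries was deposited as whole-number counts of reads per Ensembl gene. Per the submitters' processing notes, the authors used STAR, HTSeq and mm10. The sources used here do not give versions, annotation release or strand setting. The 5 closing entries that name no gene (50.8%, 50.3%, 72.4% and 70.5% of deposited counts) stayed out of library sizes. GENCODE M21 (GRCm38) matched 42548 of 43629 identifiers and gave exon lengths.

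CPM, shares and within-library ratios were computed with exact 95% intervals (Poisson, binomial, Clopper-Pearson). Changes of a ratio used a log-scale interval where each count was at least 10. Pairs were scaled by TMM (edgeR 4.0.16, R 4.3.3), and the calling code was tested on simulated data. For medians 0.5 counts were added before log2. Without molecular identifiers, reads can be copies of 1 molecule, so intervals and bounds cover counting error only. Only the hormone genes were recomputed on estimated molecules, so calls of other genes on few RIP or IgG reads lack that check. A count of 0 was replaced by a floor of 3 counts where stated. Alternatives changed the scaling (total counts, totals without hormone and acinar genes, DESeq2 1.42.0 size factors), the CPM minimum, the added count and the gene length.

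The members and lists were chosen with earlier results of these data known. Named genes are the members, the 3 nearest genes to each, and the highest, lowest and most abundant gene of each list. Other list genes were named after their values were seen, and some list genes are not reported here by name.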

Additional observations from a re-analysis of the deposited data

How the results depend on the processing

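No paired analysis was possible because each group has 1 library and the labels give no replicate numbers, and for the same reason no library could be left out. Total gene counts as scaling, and totals without hormone and acinar genes, each gave 2 instead of 1 hormone genes called in the RIP over control, the added one being Ppy (log2 -1.13 and -1.28). With all deposited counts as the denominator, the hormone genes took 16.4%, 18.2%, 7.11% and 0.0319% in control islets, labelled knockout, RIP and IgG. The ratio of Gcg to insulin there, 0.0380, became 0.0416 by the longest transcript, 0.0469 with no length and 0.0285 by coding length, an alternative chosen after seeing the data, as was the division by reads per molecule. The share of Gcg among the hormone genes was 3.27% with the insulin genes and 23.8% without them. No direction reversed among the values called. Division by reads per molecule left 0 hormone genes called in the RIP over control, as Ghrl was lost, and 7 in the RIP over IgG. For single hormone genes, 155 log2 ratios under an alternative kept their call, and those 2 of Ppy and 1 of Ghrl did not. Iapp in the RIP over control, never called, lay at log2 -0.01 with total counts and -0.16 with totals without hormone and acinar genes, instead of 0.27. In the RIP over IgG, a minimum of 5 CPM left 7 hormone genes called, since Ghrl was no longer measured.

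Over all genes, a minimum of 5 CPM changed the calls (higher and lower) from 965 and 2409 to 497 and 1582 in the labelled knockout over control, from 2686 and 3888 to 1302 and 2220 in the RIP over control, and from 6402 and 4518 to 3945 and 3522 in the RIP over IgG. Totals without hormone and acinar genes gave 1964 and 5493, and 8546 and 2804, in the RIP comparisons, and total counts 7670 and 3387 in the RIP over IgG. The median log2 ratio of all genes then moved to -0.55 and 1.56, and with total counts to 1.13 in the RIP over IgG. Few reads stand behind Ghrl in the RIP (32) and behind Ghrl, Pyy and Sst in the IgG library (0, 80 and 167).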

Other observations

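Other peptide genes of islets and gut were measured beside the hormone genes. Of 26 listed, 16 were measured in the labelled knockout over control, with a median log2 ratio of 0.28. Of these, 3 were called higher and 0 lower, where 6.13% of all measured genes were higher and 15.3% lower. Those higher were Spx, which encodes spexin (2.07-fold, 19 and 35 counts), Penk, which encodes proenkephalin (2.03-fold), and Grp, gastrin-releasing peptide (1.63-fold). Ucn3, made in mature beta cells, was the most abundant, at 412.5 and 444.0 CPM in these 2 libraries, and Adm had the lowest ratio, 0.866. Vip, a peptide of nerve fibres that reach the islet, stood at 185.2, 256.8, 277.3 and 2.05 CPM in control islets, the labelled knockout, the RIP and the IgG library. In the RIP over control, 3 of 16 were called higher and 2 lower, where 16.8% of all measured genes were higher and 24.3% lower. Those higher were Igf1 (5.67-fold), Dlk1 (2.26-fold, on 32 RIP counts) and Calcb, with 13 counts in the RIP and 0 in control islets. Those lower were Pnoc, with 0 counts in the RIP and 54 in control islets, and Adm (0.498, on 9 RIP counts). The RIP counts of Calcb and Adm lie below the 18 reads estimated per molecule. Dlk1 had as many RIP reads as Ghrl, whose call was lost on molecules. Against IgG, 11 of 15 measured genes of this list were called higher and 2 lower. Of all measured genes, 43.2% were higher and 30.5% lower in that comparison. Igf1 was called lower there, with a scaled ratio of 0.441 (47.0 CPM for the RIP, 66.1 CPM for IgG). Dlk1 (3.95-fold, 32 against 11 counts) and Calcb (13 against 0 counts) were called higher there too.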
